A study of Mus musculus with 6 samples.

Results

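The genes of fatty acid oxidation were chosen by symbol as a list of 43, covering activation of fatty acids, the carnitine shuttle, oxidation in mitochondria and in peroxisomes, and the handling of acyl-CoA. All 43 were found among the 56923 gene identifiers of the count tables, and all 43 passed the filter on low counts. Transcripts were counted by RNA sequencing in 6 whole kidneys from male mice aged 10 weeks. The 3 Pkd1 KO kidneys carried Pkd1flox/flox, Pax8rtTA and Tet-O-Cre, and the 3 control kidneys carried Pkd1flox/flox and Tet-O-Cre without Pax8rtTA. Mice of both groups received doxycycline at 2 mg/ml with 5% sucrose for 14 days, postnatal days 28 to 42. Pkd1 encodes polycystin-1, whose loss in tubule cells gives rise to cysts. The Pax8 promoter is active in renal tubule cells, so the deletion was aimed at these cells and not at vascular, stromal or immune cells.

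Fatty acid oxidation shortens an acyl-CoA by repeated rounds of dehydrogenation, hydration, a further dehydrogenation and thiolysis. Mitochondria take in long chains through the carnitine shuttle and pass the electrons to the respiratory chain. Peroxisomes begin the oxidation of very long and branched chains with oxidases that make hydrogen peroxide. The proximal tubule, which makes up much of the kidney cortex, draws most of its energy from fatty acids.

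Libraries held 51966474 to 62983791 gene counts in the Pkd1 KO group and 45020173 to 55548316 in the control group, with control 1 summed over 2 runs. All Pkd1 KO libraries came from 1 sequencing project and all controls from another, so genotype and project cannot be told apart in any value given here. Pkd1, the deleted gene, had 8.77, 9.003 and 10.01 CPM in the Pkd1 KO kidneys, against 30.01, 46.4 and 23.6 CPM in the controls. Counts ignored strand. The labels do not say that the samples of a group are separate animals, so p-values measure the spread between these samples, which may be technical. Kidney markers were present in both groups, with Umod of the thick ascending limb at 1008 ± 203 CPM in Pkd1 KO kidneys and 2369 ± 316 CPM in controls and Slc34a1 of the proximal tubule at 1855 ± 174 CPM in Pkd1 KO kidneys and 4684 ± 1255 CPM in controls (SD, n = 3 each). In whole kidneys, fewer cells of a type and less RNA per cell cannot be told apart.

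Of the 43 genes, 17 (39.5%) were lower and 2 (4.65%) higher in Pkd1 KO kidneys at an adjusted p below 0.05 in edgeR's quasi-likelihood test, and 24 were not called. Among all 18273 genes tested the same test called 24.2% lower and 22.7% higher, 46.9% in either direction. The list was chosen with earlier results of these data known, so the comparison of these shares is a description and no test. The median log2 fold change, Pkd1 KO minus control, was −0.28 over the 43 genes and 0.03 over all genes tested. In 18 of the 43 genes every Pkd1 KO value lay below every control value, and in 6 every Pkd1 KO value lay above. The shares of all genes tested were 30.0% and 31.2%. Log2 fold changes over all genes followed gene structure. Their median was 0.65 in the shortest eighth of genes and −0.51 in the longest, and 0.56 at the low end of GC content (lowest eighth) and −0.60 at the high end. The 43 genes had a median exon length of 3879 bases and a median GC content of 48.2%, beside 3787 bases and 49.4% over all genes. A second edgeR fit therefore carried offsets for GC content and length, and its value stands beside that of the first fit as the offset value. It called 17 members lower and 4 higher, beside 17.3% lower and 17.1% higher of all genes, with a member median of −0.30. Pkd1 itself, with 17415 exonic bases at 56.8% GC, was called lower in the first fit (−1.85 ± 0.24, adjusted p = 0.00234). With the offsets it was not called (−0.34, adjusted p = 0.0644). Which fit lies nearer the change in a gene was not tested, for Pkd1 or for the members. A call that ends with the offsets is therefore read neither as a change nor as the absence of one. Both fits called 12 members lower, Slc27a2, Acsm2, Cpt2, Acad11, Acadvl, Acad10, Etfdh, Acaa1b, Acox2, Hsd17b4, Cyp4a10 and Cyp4a14, and 2 higher, Slc25a20 and Echs1. Of all genes tested, 11.9% were called lower in both.

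**Figure D1:**
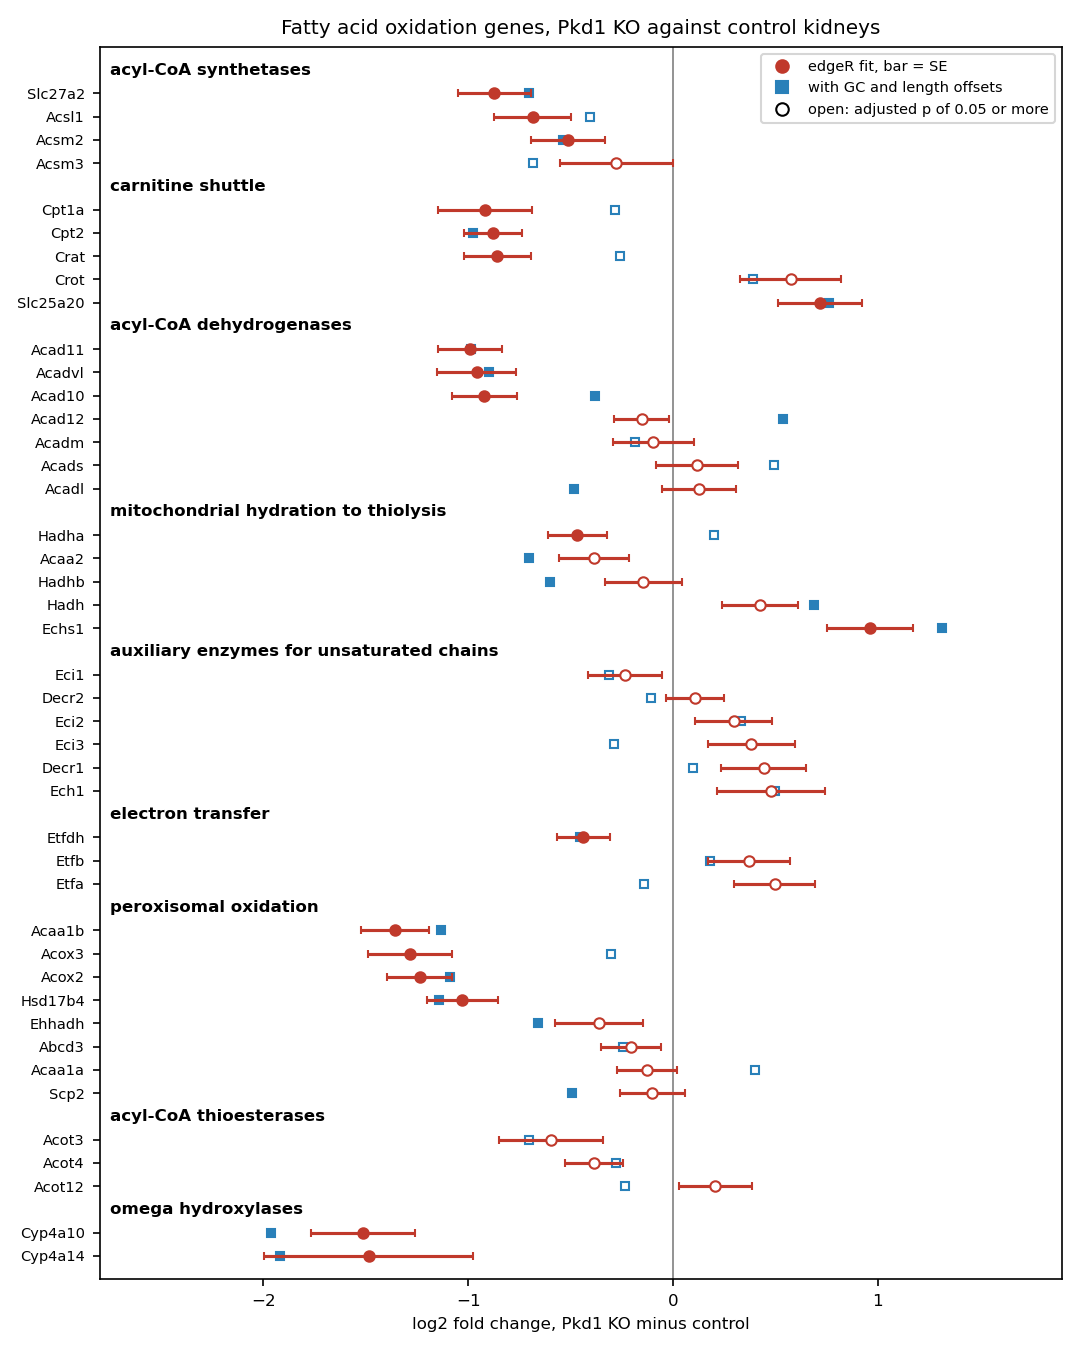
Log2 fold change of each of the 43 genes, Pkd1 KO minus control, grouped by role. Red circles with bars give edgeR's value and its SE, blue squares the value with offsets for GC content and length, and open marks an adjusted p of 0.05 or more. Most filled marks lie left of 0, while Echs1 and Slc25a20 are filled to the right in both fits, and the mark of Hadha changes side between the fits.

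Synthetases join a fatty acid to coenzyme A before any oxidation. Slc27a2 (ENSMUSG00000027359), a fatty acid transporter and very long-chain acyl-CoA synthetase of the proximal tubule, had 2791, 2285 and 2136 CPM in the Pkd1 KO kidneys, against 4480.0, 4603 and 4120.0 CPM in the controls. It held the highest level per length of all 43 genes, at 640.4 CPM per kb of exon in Pkd1 KO kidneys and 1172 in controls. The groups did not overlap, and Slc27a2 fell (−0.87 ± 0.18 SE, adjusted p = 0.00529, offset value −0.70). Acsm2 (ENSMUSG00000030945), a medium-chain acyl-CoA synthetase, had 3803, 3197 and 3009.7 CPM in the Pkd1 KO kidneys, against 4579, 5334 and 4365 CPM in the controls. It fell by less (−0.51 ± 0.18, adjusted p = 0.0438, offset value −0.54), and its call was lost without control 1, KO 2 or KO 3 (adjusted p of 0.088, 0.147 and 0.145). Acsl1 (ENSMUSG00000018796), which activates long chains, had 155, 133 and 153 CPM in the Pkd1 KO kidneys, against 281, 250.2 and 177 CPM in the controls. Its groups lay apart and it fell (−0.68 ± 0.19, adjusted p = 0.0167), but not with the offsets (−0.40, adjusted p = 0.0782) nor without control 1 (adjusted p = 0.0694), KO 2 (0.0806) or KO 3 (0.0521). Acsm3 shares 39.7% of its exonic bases with Eri2 in the annotation, so its count is uncertain, and it was not called (−0.28 ± 0.28, adjusted p = 0.432).

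The carnitine shuttle moved in both directions. Cpt1a (ENSMUSG00000024900), the malonyl-CoA-sensitive enzyme that loads long chains onto carnitine, had 216, 225 and 189 CPM in the Pkd1 KO kidneys, against 389, 527 and 275 CPM in the controls. Every Pkd1 KO kidney was below every control, and Cpt1a fell (−0.92 ± 0.23, adjusted p = 0.0114), but its offset value was smaller and not called (−0.28, adjusted p = 0.177). Cpt2 (ENSMUSG00000028607), which returns the chain to coenzyme A inside mitochondria, had 95.9, 83.4 and 80.7 CPM in the Pkd1 KO kidneys, against 175, 152 and 151 CPM in the controls. The 2 groups were well separated, and the fall held in both fits (−0.88 ± 0.14, adjusted p = 0.0028, offset value −0.97). Crat (ENSMUSG00000026853), the acetyltransferase that buffers short acyl groups, had 79.2, 69.5 and 66.4 CPM in the Pkd1 KO kidneys, against 144, 140.4 and 105 CPM in the controls. It fell in the first fit (−0.86 ± 0.16, adjusted p = 0.0043) and not with the offsets (−0.26, adjusted p = 0.136).

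Slc25a20 (ENSMUSG00000032602), the translocase that carries acylcarnitines across the inner membrane between Cpt1a and Cpt2, went the other way, with 129.5, 124 and 119 CPM in the Pkd1 KO kidneys, against 76.9, 53.5 and 95.8 CPM in the controls. All 3 Pkd1 KO kidneys exceeded all controls, of which control 2 was lowest. Slc25a20 rose (0.72 ± 0.20, adjusted p = 0.019, offset value 0.76), though its call was lost without control 1 (0.064), KO 1 (0.0677), KO 2 (0.0648) or KO 3 (0.0509). Crot (ENSMUSG00000003623), the peroxisomal octanoyltransferase and the shuttle gene with the highest level per length (163 CPM per kb over both groups), had 1223, 1009 and 951 CPM in the Pkd1 KO kidneys, against 672, 497 and 969 CPM in the controls. Control 3 overlapped the Pkd1 KO kidneys and Crot was not called (0.57 ± 0.24, adjusted p = 0.0814). Without control 3 it was (0.81, adjusted p = 0.00647).

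Nuclear receptors of the PPAR family bind, with RXR, a direct repeat of AGGTCA with 1 base between the copies. RefSeq promoter windows on GRCm38, 250 bases before to 50 bases after a start site, were available for 37 of the 43 genes, 42 windows in all since some genes have more than 1 start. They were searched on both strands for 2 copies of AGGTCA with any 1 base N between them, allowing up to 2 mismatches in the 12 fixed letters. A match in at least 1 window was found for 6 of these 37 genes (16.2%), against 1190 of 27025 genes (4.40%) in the table. The 6 were Slc25a20 and Echs1, both called higher, Acox2, called lower, and Acot12, Acot4 and Etfa, not called in the first fit. A single AGGTCA, which can also be part of such a repeat, was found for 24.3% of the members and 18.1% of all genes. A match describes letters in a window and no bound site. The windows of the members called higher in both fits are shown because both hold a match, in capitals.
Slc25a20, chr9:108661886-108662185, plus strand: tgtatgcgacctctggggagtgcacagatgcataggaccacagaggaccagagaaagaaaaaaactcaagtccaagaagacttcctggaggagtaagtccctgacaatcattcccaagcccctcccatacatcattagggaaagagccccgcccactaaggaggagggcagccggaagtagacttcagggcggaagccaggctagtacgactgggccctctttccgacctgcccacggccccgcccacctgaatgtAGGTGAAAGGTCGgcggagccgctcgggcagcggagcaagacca
Echs1, chr7:140116372-140116671, minus strand: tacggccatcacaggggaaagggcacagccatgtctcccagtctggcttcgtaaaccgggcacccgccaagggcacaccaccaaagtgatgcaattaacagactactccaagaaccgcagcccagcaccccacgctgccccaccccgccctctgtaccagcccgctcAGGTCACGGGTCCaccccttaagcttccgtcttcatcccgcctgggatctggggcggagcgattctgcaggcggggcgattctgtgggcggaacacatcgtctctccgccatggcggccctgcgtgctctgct

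Acyl-CoA dehydrogenases, which make the first double bond, are specialised by chain length. The very long-chain enzyme Acadvl (ENSMUSG00000018574) had 103, 61.7 and 88.5 CPM in the Pkd1 KO kidneys, against 171, 151 and 169 CPM in the controls. KO 2 was the lowest, no values overlapped, and Acadvl fell in both fits (−0.96 ± 0.19, adjusted p = 0.00518, offset value −0.90). Acadvl shares 42.9% of its exonic bases with Dvl2 in the annotation, so its count is uncertain. Acad11 (ENSMUSG00000090150) had 89.9, 76.3 and 74.3 CPM in the Pkd1 KO kidneys, against 172, 172 and 134 CPM in the controls. Its level in Pkd1 KO kidneys was 0.50 times that of controls, and the fall held in both fits (−0.99 ± 0.16, adjusted p = 0.0028, offset value −0.99). Acad10 (ENSMUSG00000029456) had 46.9, 33.9 and 40.6 CPM in the Pkd1 KO kidneys, against 77.5, 82.3 and 69.96 CPM in the controls. It fell too (−0.92 ± 0.16, adjusted p = 0.00314), with a smaller offset value (−0.38, adjusted p = 0.0484).

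The medium-chain enzyme Acadm (ENSMUSG00000062908) had the highest level per length of the dehydrogenases (393 CPM per kb), with 1679, 1341 and 1445 CPM in the Pkd1 KO kidneys, against 1589, 1253 and 1927 CPM in the controls. The groups overlapped and it was not called (−0.095 ± 0.20, adjusted p = 0.712). Long-chain Acadl (0.13 ± 0.18, adjusted p = 0.58) and short-chain Acads (0.12 ± 0.20, adjusted p = 0.646) were not called either, although Acadl was called lower with the offsets (−0.48, adjusted p = 0.0233). Acad12 was not called (−0.15 ± 0.14, adjusted p = 0.377) and was called higher with the offsets (0.54, adjusted p = 0.0419). Acad10 and Acad12 share 18.6% and 20.7% of their 50-base words with other genes, mostly with each other, so the division of reads between them is uncertain.

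Hydration to thiolysis in mitochondria is done by the trifunctional protein for long chains and by single enzymes for shorter ones. Echs1 (ENSMUSG00000025465), the short-chain enoyl-CoA hydratase, had 653, 638 and 666 CPM in the Pkd1 KO kidneys, against 316, 248 and 439 CPM in the controls. The Pkd1 KO kidneys lay within a narrow band above all controls. It was the largest rise of the 43 genes (0.96 ± 0.21, adjusted p = 0.0069), it was larger with the offsets (1.32), and it stayed called with any library left out. Hadha (ENSMUSG00000025745), the trifunctional subunit with hydratase and dehydrogenase activity, had 195, 158 and 182 CPM in the Pkd1 KO kidneys, against 265, 244 and 230.4 CPM in the controls. It fell in the first fit (−0.47 ± 0.14, adjusted p = 0.027), but its offset value lay on the other side of 0 (0.20, adjusted p = 0.355), and the call was lost without control 1, KO 2 or KO 3 (adjusted p of 0.091, 0.132 and 0.0886). Hadhb, the thiolase subunit, was not called (−0.14 ± 0.19, adjusted p = 0.553) and was called lower with the offsets (−0.60, adjusted p = 0.0198). The promoter windows of Hadha (chr5:30154931-30155230, minus strand) and Hadhb (chr5:30155003-30155302, plus strand) overlap head to head, and neither holds a match to the repeat.

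Hadh (ENSMUSG00000027984), the short-chain hydroxyacyl-CoA dehydrogenase and the most abundant of these genes per length (172 CPM per kb), had 1033, 953 and 951 CPM in the Pkd1 KO kidneys, against 734, 569 and 885 CPM in the controls. All Pkd1 KO values were above all control values. Hadh was not called in the first fit (0.42 ± 0.19, adjusted p = 0.0901), but was with the offsets (0.69, adjusted p = 0.0242) and without control 3 (0.54, adjusted p = 0.0232). The thiolase Acaa2 was not called (−0.39 ± 0.17, adjusted p = 0.0896), but was lower with the offsets (−0.70, adjusted p = 0.00597) and without control 2 (−0.57, adjusted p = 0.00499).

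The auxiliary enzymes, isomerases and reductases that reposition or remove double bonds of unsaturated chains, gave 0 calls among 6 in edgeR's test, and also 0 with the offsets. DESeq2 called 0 of them, and 0 had an unadjusted p below 0.05. Ech1 (ENSMUSG00000053898), a dienoyl-CoA isomerase and the most abundant per length (243 CPM per kb), had 670.3, 646 and 621 CPM in the Pkd1 KO kidneys, against 507, 273 and 611 CPM in the controls. Control 2 was far below the other controls, and Ech1 was not called (0.48 ± 0.26, adjusted p = 0.164). Estimates were positive for Decr1 (0.44 ± 0.21, adjusted p = 0.108), Eci3 (0.38 ± 0.21, adjusted p = 0.166), Eci2 (0.30 ± 0.19, adjusted p = 0.219) and Decr2 (0.11 ± 0.14, adjusted p = 0.544), and negative for Eci1 (−0.23 ± 0.18, adjusted p = 0.305). Without control 3, Ech1 (0.68, adjusted p = 0.0376), Decr1 (0.58, adjusted p = 0.026), Eci3 (0.56, adjusted p = 0.0236) and Eci2 (0.44, adjusted p = 0.0362) were called higher, and without control 2 Eci1 was called lower (−0.42, adjusted p = 0.026). With the offsets the values of Eci3 (−0.29) and Decr2 (−0.10) changed sign.

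Electrons from the dehydrogenases pass through the flavoprotein made by Etfa and Etfb to the ubiquinone oxidoreductase Etfdh. Etfdh (ENSMUSG00000027809) had 167, 155 and 152 CPM in the Pkd1 KO kidneys, against 223, 218 and 201 CPM in the controls. Its groups did not overlap and it fell in both fits (−0.44 ± 0.13, adjusted p = 0.024, offset value −0.45), with the call lost without control 1 (0.0769), KO 1 (0.0551), KO 2 (0.102) or KO 3 (0.11). Etfa (ENSMUSG00000032314), the most abundant of the 3 per length (339.8 CPM per kb), had 767, 714 and 708 CPM in the Pkd1 KO kidneys, against 498, 398 and 656 CPM in the controls. All Pkd1 KO values were above the controls, but Etfa was not called (0.50 ± 0.20, adjusted p = 0.065). Its offset value was −0.14, and without control 3 it was called higher (0.66, adjusted p = 0.00728). Etfb was not called (0.37 ± 0.20, adjusted p = 0.157), and 58.2% of its exonic bases overlap another annotated gene.

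**Figure D2:**
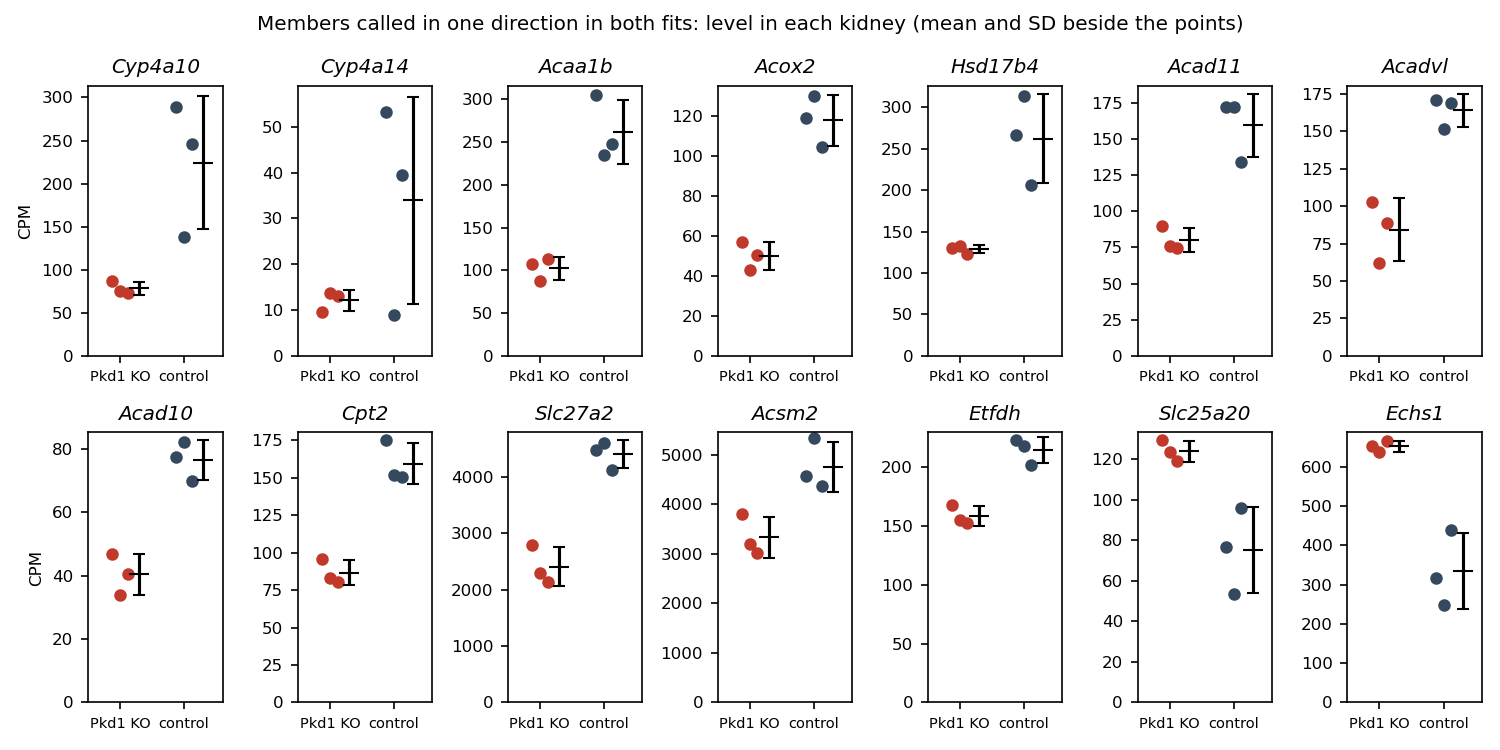
Level of the 14 genes called in the same direction in both fits, in CPM from 0, with 1 point per kidney and the mean and SD beside the points (n = 3), Pkd1 KO in red and control in dark blue. In 13 of the 14 panels the groups do not overlap, and in that of Cyp4a14 control 2 lies at the level of the Pkd1 KO kidneys.

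Peroxisomal oxidation held the largest falls outside omega hydroxylation. Acaa1b (ENSMUSG00000010651), a peroxisomal thiolase, had 107, 87.1 and 113 CPM in the Pkd1 KO kidneys, against 305, 235 and 247 CPM in the controls. Every control had at least 235 CPM and no Pkd1 KO kidney more than 113 CPM, and the fall held in both fits (−1.36 ± 0.17, adjusted p = 0.00234, offset value −1.13). Acox2 (ENSMUSG00000021751), the oxidase of branched chains and bile acid intermediates, had 56.9, 42.98 and 50.3 CPM in the Pkd1 KO kidneys, against 119, 130.1 and 104 CPM in the controls. It fell by a similar amount in both fits (−1.24 ± 0.16, adjusted p = 0.00234, offset value −1.09). Acox3 (ENSMUSG00000029098), another oxidase of branched chains, had 101, 91.8 and 80.5 CPM in the Pkd1 KO kidneys, against 213, 284 and 168 CPM in the controls. It fell in the first fit (−1.28 ± 0.21, adjusted p = 0.0028) with no overlap, but its offset value was much smaller and not called (−0.30, adjusted p = 0.105). The bifunctional protein Hsd17b4, which hydrates and dehydrogenates very long and branched chains, averaged 129 ± 4.75 CPM in Pkd1 KO kidneys and 262 ± 53.8 CPM in controls (SD, n = 3 each) and fell in both fits (−1.03 ± 0.17, adjusted p = 0.00311, offset value −1.14).

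Ehhadh (ENSMUSG00000022853), the other bifunctional protein and the most abundant of these genes per length (329 CPM per kb), had 926, 918 and 735 CPM in the Pkd1 KO kidneys, against 1184, 802 and 1325 CPM in the controls. Control 2 lay inside the range of the Pkd1 KO kidneys, and Ehhadh was not called in the first fit (−0.36 ± 0.21, adjusted p = 0.191). It was lower with the offsets (−0.66, adjusted p = 0.0187) and without control 2 (−0.58, adjusted p = 0.0116). The sterol carrier and thiolase Scp2 was not called in the first fit (−0.10 ± 0.16, adjusted p = 0.62) and was lower with the offsets (−0.49, adjusted p = 0.0273), and 41.4% of its 50-base words occur in other genes, mostly in the pseudogene Scp2-ps2. The importer Abcd3 was not called (−0.20 ± 0.15, adjusted p = 0.277).

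Acaa1a encodes a thiolase close to that of Acaa1b, and was not called (−0.13 ± 0.14, adjusted p = 0.491, offset value 0.40). Of the 50-base words of Acaa1b, 46.2% occur in other genes, mostly Acaa1a, so reads that fit both were not counted for either and both counts are uncertain. Acaa1b had 0.604, 0.624 and 0.750 reads per Acaa1a read in the Pkd1 KO kidneys, against 1.79, 1.46 and 1.38 in the controls. All Pkd1 KO kidneys thus had fewer Acaa1b than Acaa1a reads, and all controls more. This ratio is not corrected for GC content, which is 58.9% for Acaa1b and 55.3% for Acaa1a. Per kb of exon the level of Acaa1b was the higher of the 2 in both groups, at 52.2 CPM beside 35.3 for Acaa1a in Pkd1 KO kidneys and 134 beside 38.5 in controls. The promoter windows of these copies, shown because one was called lower and the other was not, shared no run longer than 8 of 300 bases on the same strand and hold no match to the repeat, while 1 of the 2 windows of Acox2 holds 1 match, in capitals, and the other, not shown, holds 0.
Acaa1b, chr9:119157044-119157343, minus strand: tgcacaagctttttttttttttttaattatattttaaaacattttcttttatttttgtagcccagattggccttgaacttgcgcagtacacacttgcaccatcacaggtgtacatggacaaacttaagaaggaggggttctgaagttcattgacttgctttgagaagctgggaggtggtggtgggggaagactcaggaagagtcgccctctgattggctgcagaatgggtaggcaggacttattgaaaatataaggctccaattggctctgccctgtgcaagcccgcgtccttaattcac
Acaa1a, chr9:119341044-119341343, plus strand: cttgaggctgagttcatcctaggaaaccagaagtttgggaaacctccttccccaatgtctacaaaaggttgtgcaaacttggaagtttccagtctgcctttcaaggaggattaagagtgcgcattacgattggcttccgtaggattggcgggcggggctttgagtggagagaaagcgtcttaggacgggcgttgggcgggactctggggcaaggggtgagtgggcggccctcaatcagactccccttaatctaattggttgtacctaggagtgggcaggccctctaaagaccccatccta
Acox2, chr14:8258790-8259089, minus strand: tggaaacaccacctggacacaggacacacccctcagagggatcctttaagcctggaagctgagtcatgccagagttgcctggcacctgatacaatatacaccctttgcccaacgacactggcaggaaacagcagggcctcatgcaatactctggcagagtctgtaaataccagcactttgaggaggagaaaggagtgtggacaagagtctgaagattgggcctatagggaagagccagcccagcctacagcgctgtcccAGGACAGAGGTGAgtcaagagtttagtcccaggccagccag

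Thioesterases split acyl-CoA back to free acid and coenzyme A. Acot12 (ENSMUSG00000021620), the most abundant of the 3 per length (72.98 CPM per kb), had 302, 244 and 226 CPM in the Pkd1 KO kidneys, against 215, 192 and 263 CPM in the controls. The groups overlapped and it was not called (0.21 ± 0.18, adjusted p = 0.357, offset value −0.23). Acot4 (−0.38 ± 0.14, adjusted p = 0.0515) and Acot3 (−0.60 ± 0.25, adjusted p = 0.0808) were not called, so 0 of the 3 thioesterases passed edgeR's test in either fit, with 2 at an unadjusted p below 0.05. DESeq2 called 1 of them lower, Acot4 (−0.42, adjusted p = 0.0398). Without control 3 both were called lower, Acot4 at −0.52, adjusted p = 0.00667 and Acot3 at −0.87, adjusted p = 0.00353. Acot3 shares 20.6% of its exonic bases with another annotated gene.

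Omega hydroxylases oxidise the far end of a fatty acid and lead it towards peroxisomal oxidation. They are classical PPARα targets in liver. Cyp4a10 (ENSMUSG00000066072) had 87.5, 74.8 and 73.3 CPM in the Pkd1 KO kidneys, against 289, 138 and 246 CPM in the controls. Its fall was the largest of the 43 genes (−1.51 ± 0.25, adjusted p = 0.00305, offset value −1.96), with no overlap although control 2 was well below the other controls. Of its 50-base words 30.5% occur in other genes, mostly Cyp4a32, so its count is uncertain. Cyp4a14 (ENSMUSG00000028715) had 9.54, 13.7 and 13.01 CPM in the Pkd1 KO kidneys, against 53.2, 9.03 and 39.6 CPM in the controls. Controls 1 and 3 were above all Pkd1 KO kidneys and control 2 was below them. Cyp4a14 was called lower in both fits (−1.49 ± 0.51, adjusted p = 0.04, offset value −1.92), but the call was lost in DESeq2 (adjusted p = 0.0667) and without control 1 (−1.02, adjusted p = 0.155), KO 1 (−1.35, adjusted p = 0.132), KO 2 (−1.59, adjusted p = 0.0947) or KO 3 (−1.54, adjusted p = 0.0881).

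In the first fit the shares of lower genes were similar in both compartments and not far above that of all genes. In sets this small, that margin rests on few calls. The similarity between the compartments did not hold in every refit. Of 21 genes assigned to mitochondria, 7 (33.3%) were lower and 2 (9.52%) higher, with a median log2 fold change of −0.15. Of 13 assigned to peroxisomes, 4 (30.8%) were lower and 0 higher, with a median of −0.36. Among those 13, edgeR gave 1 positive value at an unadjusted p below 0.05, and DESeq2 called 0 higher. These shares of lower genes stand beside 24.2% of all genes tested. The offset fit called 8 mitochondrial genes lower and 4 higher, and 5 peroxisomal genes lower and 0 higher, with medians of −0.28 and −0.30. Mitochondrial genes called lower numbered 4 (of 21) and peroxisomal genes 4 (of 13) without control 1, KO 2 or KO 3, where 18.3%, 14.6% and 16.5% of all genes tested were lower. Another 2 peroxisomal genes, Crot and Eci3, were higher without control 3, where 25.8% of all genes tested were higher. Of 4 genes found in both compartments or unsettled, Crat and Acad11 were lower. Of 5 placed elsewhere, Slc27a2, Acsl1, Cyp4a10 and Cyp4a14 were lower. The difference between the compartments was not tested.

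Summed over the 43 genes, the level was 17882 ± 1793 CPM in Pkd1 KO kidneys and 21718 ± 1135 CPM in controls (SD, n = 3 each), a sum that Slc27a2 and Acsm2 dominate. Without those 2 genes it was 12141 ± 1038 CPM in Pkd1 KO kidneys and 12558 ± 1867 CPM in controls, with overlapping groups. Mitochondrial genes summed to 10394 ± 1034 CPM in Pkd1 KO kidneys and 11647 ± 692 CPM in controls, also with overlap, and without Acsm2 to 7057 ± 638 CPM in Pkd1 KO kidneys and 6887 ± 1148 CPM in controls. For peroxisomal genes the sums were 3665 ± 352 CPM in Pkd1 KO kidneys and 4097 ± 493 CPM in controls, with overlapping groups. Leaving out 1 library at a time, 12 of the 17 lower genes and 1 of the 2 higher ones, Echs1, stayed called in all 6 refits. The genes lower in both fits and in each of those refits were 9 in number, Slc27a2, Cpt2, Acad11, Acadvl, Acad10, Acaa1b, Acox2, Hsd17b4 and Cyp4a10. No share of all genes stands beside these counts of kept calls. Members called higher were 9 of 43 when control 3 was left out, where 25.8% of all genes tested were higher. They were 1 without control 1, KO 1, KO 2 or KO 3, where 13.9%, 15.7%, 12.5% and 15.0% of all genes were higher. In a simulation of this comparison, 4 of 50 genes changed 1.5-fold, 38 of 50 changed 2-fold and 49 of 50 changed 3-fold were recovered. Few genes were changed in it, and it made 147 calls, against 8579 among all genes here. Its adjusted p threshold was therefore stricter, and its recovery does not carry over to the calls made here. Of the 19 members called, 13 changed less than 2-fold.

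Ratios of reads within a kidney do not depend on library scaling, but the trends with GC content and length act on them. In each pair the first gene has the higher GC content, where log2 fold changes over all genes were lower. GC content was 52.6% for Cpt2 beside 48.2% for Slc25a20, and 51.3% for Hadha beside 48.1% for Echs1. It was 53.7% for Acadvl beside 48.0% for Acadm, and 52.0% for Acox2 beside 44.8% for Scp2. The part of GC content in these ratios was not tested. These pairs were picked after their values were seen and carry no test. Cpt2 had 0.741, 0.674 and 0.678 reads per read of Slc25a20, its neighbour in the shuttle, in the Pkd1 KO kidneys, against 2.28, 2.84 and 1.57 in the controls. Hadha had 0.299, 0.248 and 0.273 reads per Echs1 read in the Pkd1 KO kidneys, against 0.837, 0.984 and 0.524 in the controls. Both ratios lay apart between the groups, and Hadha is a gene whose call the offsets end. Acadvl had 0.0612, 0.0460 and 0.0612 reads per Acadm read in the Pkd1 KO kidneys, against 0.108, 0.121 and 0.0876 in the controls. Acox2 had 0.121, 0.0987 and 0.141 reads per Scp2 read in the Pkd1 KO kidneys, against 0.264, 0.303 and 0.221 in the controls. The ratio of Hsd17b4 to Ehhadh overlapped between the groups, at 0.141, 0.144 and 0.168 in the Pkd1 KO kidneys and 0.225, 0.392 and 0.156 in the controls.

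**Figure D3:**
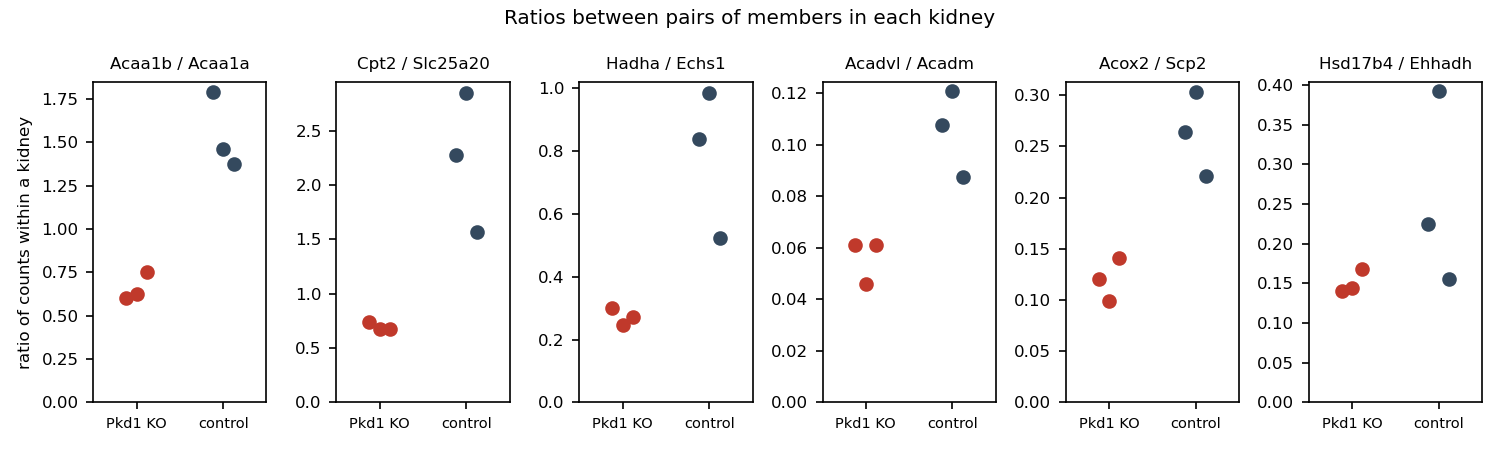
Ratio of read counts between pairs of genes within each kidney, on axes from 0, with 1 point per kidney, Pkd1 KO in red and control in dark blue. The Pkd1 KO points lie below all control points in 5 of the 6 panels, and overlap them for Hsd17b4 over Ehhadh. In each panel the first gene has the higher GC content, and the ratios are not corrected for it.

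Proximal tubule genes were lower as well. Of 23 markers of this segment other than Slc27a2, 12 were lower and 2 higher, with a median log2 fold change of −0.87, and 16 were lower and 0 higher with the offsets. The largest falls by the rule were the amino acid exchanger Slc7a8 (−2.48 ± 0.49), the dicarboxylate transporter Slc13a3 (−2.24 ± 0.23) and the endocytic receptor Cubn (−1.87 ± 0.41) in the first segments, and Atp11a (−1.53 ± 0.26), Slc22a7 (−1.38 ± 0.29) and Slc5a10 (−1.07 ± 0.16) in the last. Slc5a12 (0.62 ± 0.19) and Slc13a1 (0.52 ± 0.14) rose, neither of them with the offsets, and 0 were higher without control 1 or KO 2, 1 without control 3 or KO 1. The markers summed to 21326 ± 1950 CPM in Pkd1 KO kidneys and 27128 ± 2692 CPM in controls (SD, n = 3 each). Abundant markers weigh most in this sum, and it fell by less than the median marker did. The 43 genes had 0.847, 0.831 and 0.836 of the marker sum in the Pkd1 KO kidneys and 0.807, 0.688 and 0.931 in the controls. Relative to this sum the groups overlapped, as they did for the mitochondrial and the peroxisomal genes. The overlap does not show that the 43 genes fell in step with the typical marker. The 5 genes placed elsewhere, a sum that Slc27a2 dominates, had 0.142, 0.134 and 0.131 of the marker sum in the Pkd1 KO kidneys. In the controls they had 0.196, 0.174 and 0.198, without overlap. The 4 genes found in both compartments or unsettled lay apart the other way, at 0.0434 ± 0.0015 in Pkd1 KO kidneys and 0.0321 ± 0.0090 in controls. Ech1, which was not called, held most of that sum, at 646 of 924 CPM in Pkd1 KO kidneys and 463 of 856 CPM in controls. The called genes among the 4, Crat and Acad11, fell. The part of the proximal tubule in the results on single genes was not tested.

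Other segments were lower too, with 5 of 8 thick ascending limb genes such as Egf (−1.89 ± 0.28), 5 of 6 distal convoluted tubule genes such as Slc12a3 (−1.81 ± 0.24), 5 of 6 tested principal cell genes such as Scnn1g (−0.74 ± 0.14) and 4 of 7 intercalated cell genes such as Slc4a1 (−1.96 ± 0.27). Podocyte and endothelial genes were lower in 5 of 6 and 7 of 8 cases, 2 and 2 with the offsets. Called higher were Cldn10 of the thick ascending limb, Atp6v1g3 of intercalated cells and Emcn of endothelium, each the only 1 of its list. Cldn10 and Emcn lost that call without control 1, KO 1, KO 2 or KO 3. With the offsets 0 intercalated and 0 endothelial genes were higher. Principal cell genes called lower numbered 1 without control 1 and 2 without KO 1, KO 2 or KO 3. Podocyte genes called lower numbered 2 without control 1, KO 1 or KO 3, and endothelial genes 4 without KO 2 or KO 3. Immune and stromal lists had higher genes in 6 of 9 macrophage genes such as Lyz2 (2.70 ± 0.35), 6 of 9 lymphocyte genes such as Jchain (2.47 ± 0.40) and 4 of 9 fibroblast genes such as Dcn (1.07 ± 0.25). Lower were 1 of the macrophage genes, Csf1r (−1.01 ± 0.17), and 3 of the fibroblast genes, Pdgfrb (−1.25 ± 0.22), Pdgfra (−0.73 ± 0.14) and Col1a2 (−0.51 ± 0.18), the last of these only in some refits (adjusted p of 0.145, 0.168, 0.062 and 0.105 without control 1, KO 1, KO 2 and KO 3). Fibroblast sums overlapped, at 336 ± 56.7 CPM in Pkd1 KO kidneys and 301 ± 31.3 CPM in controls. Without KO 2 the counts of higher genes were 3, 4 and 2, and without KO 3 they were 4, 4 and 2. Lymphocyte genes called higher numbered 4 without control 3. Of 7 tested adipocyte genes, whose cells handle fatty acids, 3 were higher, among them Fabp4 (1.49 ± 0.26), but 1 without control 1, KO 1 or KO 3, 2 without control 2, 5 without control 3 and 6 without KO 2. Adipocyte sums were 167, 174 and 249 CPM in the Pkd1 KO kidneys, against 57.5, 44.1 and 101 CPM in the controls, most of it Fabp4, which vascular cells also express. The injury marker Havcr1 rose (3.61 ± 0.77), as did Lcn2 (2.34 ± 0.37), within a list of 10 that had 5 higher and 2 lower, and 3, 2 and 3 higher without control 1, KO 2 and KO 3. What these cells contribute to the values of the 43 genes was not tested.

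Genes that regulate the pathway were lower in most cases. Of 19 regulators 13 were lower and 0 higher, with a median of −0.71, and 10 were lower and 1 higher with the offsets. The list was not divided into genes that raise and genes that restrain oxidation, so these counts give no direction of regulation. DESeq2 called 0 higher, and 1 positive value had an unadjusted p below 0.05 in edgeR. The count of lower regulators was 8 without KO 2 or KO 3. The largest falls by the rule were in the coactivator Ppargc1b (−1.60 ± 0.48, adjusted p = 0.0245, offset value −0.87, adjusted p = 0.115), the PPAR partner Rxra (−1.47 ± 0.24, adjusted p = 0.003, offset value −0.59) and Lpin1 (−1.40 ± 0.16, adjusted p = 0.00229, offset value −0.74), a nuclear coactivator and lipid phosphatase. Named after their values were seen, the receptor Ppara averaged 24.5 ± 2.40 CPM in Pkd1 KO kidneys and 53.9 ± 19.5 CPM in controls (SD, n = 3 each) and fell in both fits (−1.14 ± 0.24, adjusted p = 0.00593, offset value −1.01), and so did the coactivator Ppargc1a (−0.48 ± 0.16, adjusted p = 0.036, offset value −0.76). Calls lost with a library left out were those of Ppargc1b without KO 2 (adjusted p = 0.096) or KO 3 (0.0728), and of Ppargc1a without control 1 (0.0889), KO 1 (0.103), KO 2 (0.116) or KO 3 (0.109) and with upper-quartile scaling (−0.31, adjusted p = 0.114). Of 10 tested PPARα targets outside fatty acid oxidation, 2 were lower, Plin5 (−0.70 ± 0.17, adjusted p = 0.0113) and Plin2 (−0.46 ± 0.14, adjusted p = 0.0261), and 0 higher, with a median of 0.21. In edgeR 2 positive values had an unadjusted p below 0.05, and DESeq2 called 1 higher. Neither Plin5 nor Plin2 was lower with the offsets or without KO 2, and Plin2 lost its call without control 1, KO 1 or KO 3 too (adjusted p of 0.0815, 0.0541 and 0.121).

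Of 7 ketone body genes 3 were lower and 2 higher. Bdh1 (−0.50 ± 0.15, adjusted p = 0.0254) and Aacs (−0.97 ± 0.14, adjusted p = 0.00259) fell and Bdh2 rose (0.44 ± 0.16, adjusted p = 0.0481) in the first fit, none of the 3 with the offsets. Left-out libraries ended the call of Bdh1 (adjusted p of 0.056 for control 1, 0.124 for KO 2 and 0.105 for KO 3). That of Bdh2 ended without any 1 library other than control 3 (adjusted p of 0.0952 to 0.151). Acat1 and Oxct1 were not called.

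Among 26 other tested genes of fatty acid oxidation, 6 were lower and 5 higher, with a median of 0.04, close to the shares of all genes. Acacb, which makes the malonyl-CoA that restrains Cpt1, fell (−1.81 ± 0.31, adjusted p = 0.00318, offset value −0.57), as did the transporter Abcd4 (−0.94 ± 0.26, adjusted p = 0.0167, offset value −0.49, adjusted p = 0.0623). Hsd17b10 (1.04 ± 0.23, adjusted p = 0.00763, offset value 0.59), a mitochondrial hydroxyacyl-CoA dehydrogenase, and Nudt7 (1.01 ± 0.22, adjusted p = 0.0065, offset value 0.93), which hydrolyses coenzyme A in peroxisomes, rose. Peroxisome assembly gave 4 lower and 4 higher of 16, with a median of 0.03. Pex6 (−1.47 ± 0.17) and Pex5 (−1.16 ± 0.19) were lower and Pex3 (0.96 ± 0.16) and Pex2 (0.92 ± 0.19) higher. Of these named genes Pex6 and Pex5 were called with the offsets. Over the whole list of 16 the offset fit called 2 lower and 3 higher. The call of Abcd4 was lost without KO 2 (adjusted p = 0.0698) or KO 3 (0.0539). Higher genes of the first list numbered 3 without control 1, KO 1 or KO 3 and 2 without KO 2, and lower genes of the second 2 without KO 2.

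Of 26 genes of acyl-CoA synthesis, hydrolysis and uptake, 9 were lower, led by Slc27a1 (−1.04 ± 0.17), Acot11 (−1.03 ± 0.16) and Acss1 (−1.03 ± 0.20), and 6 higher, led by Fabp4 (1.49 ± 0.26) and Acot13 (1.40 ± 0.29). Slc27a1 was not called with the offsets. Of 11 other genes of omega hydroxylation 3 were lower, Cyp4a31 (−1.43 ± 0.19, adjusted p = 0.00234, offset value −1.86), Cyp4f13 (−0.81 ± 0.13, adjusted p = 0.00281, offset value −0.31, adjusted p = 0.0792) and Cyp4f14 (−0.62 ± 0.22, adjusted p = 0.0468, offset value −0.72), and 0 were higher. DESeq2 also called 0 of the 11 higher, and 0 positive values had an unadjusted p below 0.05 in edgeR, but without control 2 Cyp4a32 was called higher (0.75, adjusted p = 0.0285). Cyp4f14 lost its call without control 1 (adjusted p = 0.127), KO 1 (0.0895), KO 2 (0.165) or KO 3 (0.0942). Fatty acid synthesis, the opposite pathway, had 9 lower and 2 higher of 15, with a median of −0.73. Srebf1 (−1.60 ± 0.25, adjusted p = 0.0028, offset value −0.62), Fasn (−1.40 ± 0.38, adjusted p = 0.0169, offset value 0.034, adjusted p = 0.907) and Acaca (−1.14 ± 0.31, adjusted p = 0.0169, offset value −0.18, adjusted p = 0.44) fell, and Thrsp (1.87 ± 0.51, adjusted p = 0.0171, offset value 1.73) and Elovl7 (0.54 ± 0.13, adjusted p = 0.0115, offset value 0.033, adjusted p = 0.834) rose. Synthesis genes called lower numbered 5 without KO 1 and 6 without KO 2, where the calls of Fasn (adjusted p of 0.0711 and 0.0724) and Acaca (0.0685 and 0.0696) were lost. Thrsp was not called without control 1 (0.0629) or KO 3 (0.0571), nor Elovl7 without KO 2 (0.0573) or KO 3 (0.0516).

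**Figure D4:**
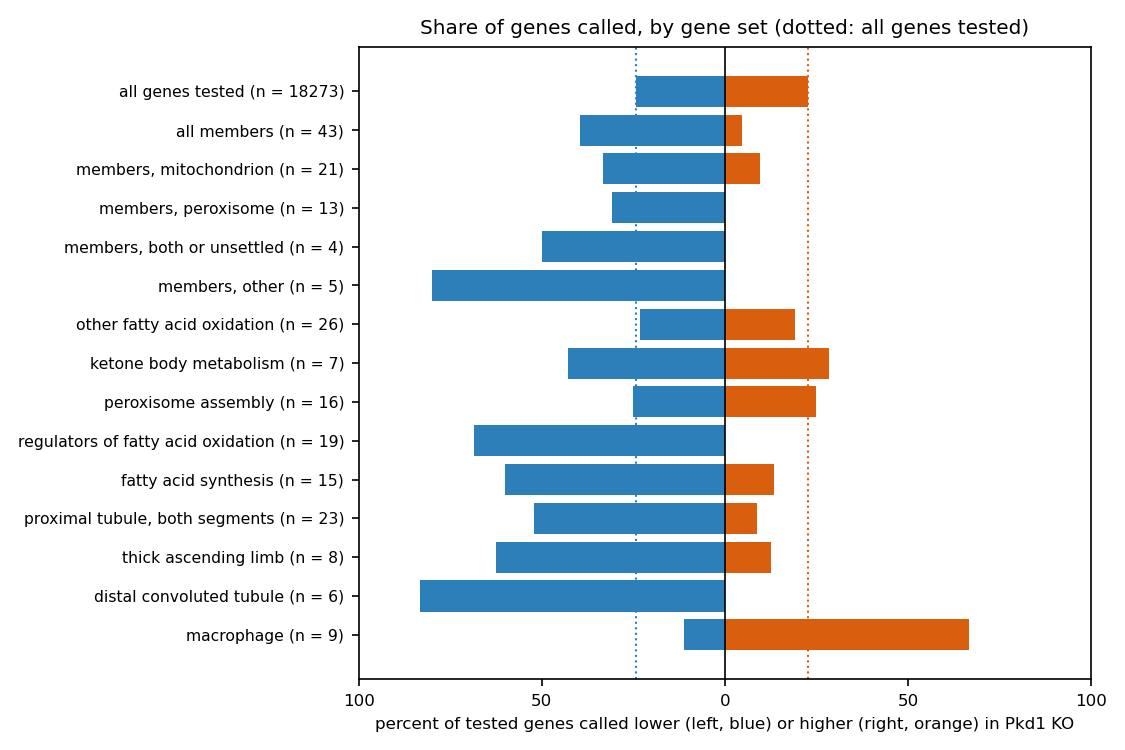
Percent of tested genes called lower (left) and higher (right) in Pkd1 KO kidneys for the 43 genes, their compartments and other gene lists, with dotted lines at the 24.2% and 22.7% of all genes tested. The 43 genes exceed the lower share and stay under the higher share of all genes, while other fatty acid oxidation and peroxisome assembly genes lie near both lines. The 43 genes and the lists were chosen with earlier results of these data known.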

How the data were processed

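Poly-A RNA of whole kidneys was sequenced, and groups were taken from the sample titles. The deposited files hold raw read counts per gene, with no normalization by the authors, in 7 tables of the layout that STAR writes. Per the submitters' processing notes the tools were FastQC 0.11.8, STAR 2.6.1e and cutadapt 4.0, on build GRCm39. The first strand column held 49.1% to 50.0% of stranded reads, so the strand-blind column was taken. The 4 rows that name no gene held 25.3% to 26.3% of reads in Pkd1 KO and 22.9% to 23.8% in control libraries and were left out. The 2 runs of control 1, which differed by a chi-square of 3.59 per gene, were summed. Between libraries of a group this value was 26.1 to 32.7 for Pkd1 KO and 75.6 to 257 for controls, so the controls differed more among themselves. Symbols, exon lengths and GC content came from GENCODE M21 (GRCm38) by identifier, for 52073 of 56923, and no coordinates from it are printed. Promoter sequences are RefSeq's on GRCm38.

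Counts were tested with edgeR 4.0.16 in R 4.3.3 (filterByExpr, TMM, quasi-likelihood F test, Benjamini-Hochberg adjustment over 18273 genes, threshold 0.05), Pkd1 KO against control, with SE taken as the log2 fold change over the square root of F. CPM values are counts scaled by the TMM library size. The offset fit added a loess surface (span 0.3) of each library on GC content and log2 exon length, and a change shared by long or GC-rich genes would be removed by it too. Alternatives were RLE and upper-quartile scaling, DESeq2 1.42.0, no filter, the replicate block, only the deeper run of control 1, and leaving out each library. Shared sequence is the share of a gene's 50-base transcript words found in other genes, or of its exonic bases inside other genes' exons. On simulated data for 17985 genes the script made 147 calls, 6 of them false. Precision is limited by 3 libraries per group, with a biological coefficient of variation of 21.4%.

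The members and the 21 gene lists were chosen with earlier results of these data known. The rule for named genes gave values in every library for the member of each role with the highest level per length, up to 3 of its largest called falls and up to 2 of its largest called rises. In each other list it took up to 3 called genes of the main direction and 2 of the opposite one, at a mean log2 CPM no lower than 0, of which the text names fewer for cell type markers, a choice made after the values were seen. Ratios within a kidney, Umod and Slc34a1 were also chosen then. Some genes that this rule takes are not reported here.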

Additional observations from a re-analysis of the deposited data

How the results depend on the processing

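The count of all genes called (8579) was 5399 with the replicate block and the offsets together and ranged from 5071 (without KO 2) to 10318 (without control 3) over the left-out libraries. Lower members (17) ranged from 12 to 20 and peroxisomal lower members (4) from 4 to 6 over those refits. The share of all genes tested that was lower moved too, from 14.6% (without KO 2) to 28.8% (without control 3). Members called higher (2) numbered 5 with upper-quartile scaling, 4 with the offsets and 4 with the replicate block and the offsets, and from 1 to 9 over the left-out libraries. Of all genes tested, 28.9% were higher with upper-quartile scaling and 12.5% to 25.8% over the left-out libraries. Mitochondrial members called lower (7 of 21) numbered 4 with upper-quartile scaling, 4 without a filter and 4 with the replicate block. They ranged from 4 to 9 over the left-out libraries. Of all genes tested, 18.9% were lower with upper-quartile scaling, 13.2% without a filter (33119 genes) and 20.9% with the replicate block. With that scaling and with the block the mitochondrial share was thus near that of all genes. Upper-quartile scaling moved the all-gene median to 0.19 (log2), beside 0.03, and the higher share of calls to 60.5%, beside 48.4% with TMM. It ended the calls of Hadha, Acsm2, Etfdh and Cyp4a14, and those of the first 3 also ended without a filter.

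Same-numbered samples did not deviate together (correlations of 0.038, −0.084 and −0.029 across genes), so the numbers were not taken as pairs. With the replicate block 7397 genes were called, 13 members lower and 2 higher, and the calls of Hadha, Acsm2, Etfdh and Cyp4a14 were lost. Of all genes tested, 20.9% were lower and 19.6% higher with the block. With block and offsets 15 members were lower, beside 15.1% of all genes tested.

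Values that changed sign were all uncalled there unless an adjusted p below 0.05 is given in the report. With upper-quartile scaling they were Acadm 0.059, Acad12 0.0069, Hadhb 0.010, Acaa1a 0.032 and Scp2 0.059. With the offsets, and with block and offsets, they were Acadl −0.48 and −0.48, Acad12 0.54 and 0.57, Hadha 0.20 and 0.21, Eci3 −0.29 and −0.28, Decr2 −0.10 and −0.10, Acaa1a 0.40 and 0.41, Acot12 −0.23 and −0.24, and Etfa −0.14 and −0.14. Over the left-out libraries Acadm ranged from −0.27 to 0.017, Acadl from −0.051 to 0.23, Acads from −0.078 to 0.25, Decr2 from −0.026 to 0.14 and Scp2 from −0.19 to 0.0090. The cause of these differences was not tested. Under RLE scaling 42 of 43 members kept direction and call, and 41 under DESeq2.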

Other observations

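Several genes of fatty acid handling outside the 43 were higher in Pkd1 KO kidneys in both fits, and were picked after their values were seen. The acyl-CoA-binding protein Dbi averaged 1159 ± 136 CPM in Pkd1 KO kidneys and 479.7 ± 185 CPM in controls (SD, n = 3 each), which edgeR called higher (1.27 ± 0.27, adjusted p = 0.00616, offset value 1.02). The mitochondrial thioesterases Acot9 (1.31 ± 0.21, adjusted p = 0.0028, offset value 0.78) and Acot13 (1.40 ± 0.29, adjusted p = 0.00564, offset value 0.74) rose as well. Pex7, the receptor that imports the thiolase of Acaa1a and Acaa1b into peroxisomes, also rose (0.81 ± 0.19, adjusted p = 0.00915, offset value 1.06).

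Of the amino acid acyl-CoA dehydrogenases Ivd fell (−0.82 ± 0.16, adjusted p = 0.00464, offset value −0.46), while Acadsb (0.091 ± 0.14, adjusted p = 0.604) and Gcdh (−0.14 ± 0.15, adjusted p = 0.485) were not called. The medium-chain synthetases Acsm1 (−0.67 ± 0.15, adjusted p = 0.0085, offset value −0.92) and Acsm5 (−0.81 ± 0.19, adjusted p = 0.00867, offset value −0.85) fell beside Acsm2.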
